A study of Homo sapiens with 12 samples.

Results

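LAMP1, CIT, ATE1 and C12orf73 are 4 human genes that were strongly lowered in RCC4 cells transfected with siMESH1-7002 and whose 3'UTR carries 2 matches to the seed of that siRNA. They are 4 of the 23710 gene symbols in the count files, and all 4 passed the filter on low counts in each experiment. Because the fall with siMESH1-7002 was used to choose them, their values with that siRNA are given as a description with no test. Their values with a second siRNA against the same target, siMESH1-CDS, were not used in the choice and are tested.

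RCC4 is an established human clear cell renal carcinoma line. Cells received 40 pmol of siRNA and were collected after 72 hours, and RNA was sequenced in 12 libraries that form 2 experiments. The CDS experiment held 3 libraries with siMESH1-CDS and 3 with siNT, a non-targeting control siRNA. The 7002 experiment held 3 libraries with siMESH1-7002 and 3 with siNT, so that each MESH1 siRNA was compared with its own siNT. MESH1 is the product of HDDC3, a metazoan relative of the bacterial SpoT enzyme. The libraries carry biological replicate numbers, and nothing further in the labels says how the cultures were kept apart.

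An siRNA acts through a guide strand held by an Argonaute protein, and a transcript that pairs with the guide over its whole length can be cut. The seed, bases 2 to 8 of the guide, can also pair on its own with sites in the 3'UTR of other transcripts, in the way a microRNA does. Such pairing recruits the TNRC6 and CCR4-NOT proteins, which shorten the poly(A) tail and lower the transcript. Seed pairing depends on the sequence of the individual siRNA, so siRNAs against one gene with different seeds are commonly compared.

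The guides were taken as the reverse complements of the targets that the submitters list. The labels name the 3'UTR siRNA by 2 catalogue entries that differ, and the entry listed with a sequence was used. The guides are shown 5′ to 3′ in DNA letters, with the seed in capitals, because every match below derives from them.

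siMESH1-7002 guide: tAGTTAGCaggagaccttcag
siMESH1-CDS guide: cACAATGTcagtgattccc

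The seeds differ, and the 7-base match to the siMESH1-7002 seed reads GCTAACT on the transcript while that to the siMESH1-CDS seed reads ACATTGT. The full siMESH1-7002 target lies in the 3'UTR of HDDC3 (chr15:90931109-90931129, minus strand, GRCh38), and the full siMESH1-CDS target lies in its coding region (chr15:90932064-90932082). The matches in the 4 genes are shown with the bases that face the whole guide, and the capitals mark the seed match. All are from the strand of the transcript.

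HDDC3, full target: ctgaaggtctcctGCTAACTa
LAMP1, first match: cggtgttaattttGCTAACTg
LAMP1, second match: ggttaaatattttGCTAACTg
CIT, first match: aaccaaccgggatGCTAACTa
CIT, second match: ttgcagttggcaaGCTAACTc
ATE1, first match: gaaaatatcctcaGCTAACTa
ATE1, second match: tgtatctgtcgttGCTAACTt
C12orf73, first match: cacttagtctaatGCTAACTg
C12orf73, second match: attctagatctctGCTAACTt

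LAMP1, which encodes a heavily glycosylated protein of the lysosomal membrane, is on chromosome 13, plus strand (chr13:113297241-113323672, GRCh38, GENCODE 29). Its matches start 186 and 207 bases after the stop codon (chr13:113322607-113322613 and chr13:113322628-113322634), 21 bases apart in a 3'UTR of 1251 bases. CIT, which encodes citron kinase of the cytokinetic midbody, is on chromosome 12, minus strand (chr12:119685790-119877291), with matches at 328 and 1491 of 2442 bases (chr12:119687898-119687904 and chr12:119686735-119686741). The LAMP1 pair was thus the closest of those in the 4 genes.

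ATE1, which encodes the arginyltransferase that adds arginine to the N-terminus of proteins marked for degradation, is on chromosome 10, minus strand (chr10:121740421-121928801). Its matches lie at 1410 and 3052 of 3259 bases (chr10:121742264-121742270 and chr10:121740622-121740628). C12orf73, now named UQCC6, encodes a small mitochondrial inner membrane protein needed to assemble respiratory complex III, and is on chromosome 12, minus strand (chr12:103950202-103965708). Its matches lie at 94 and 402 of 1316 bases (chr12:103951423-103951429 and chr12:103951115-103951121), so that in LAMP1, CIT and C12orf73 the first match lay closer to the stop codon than in ATE1.

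**Figure D1:**
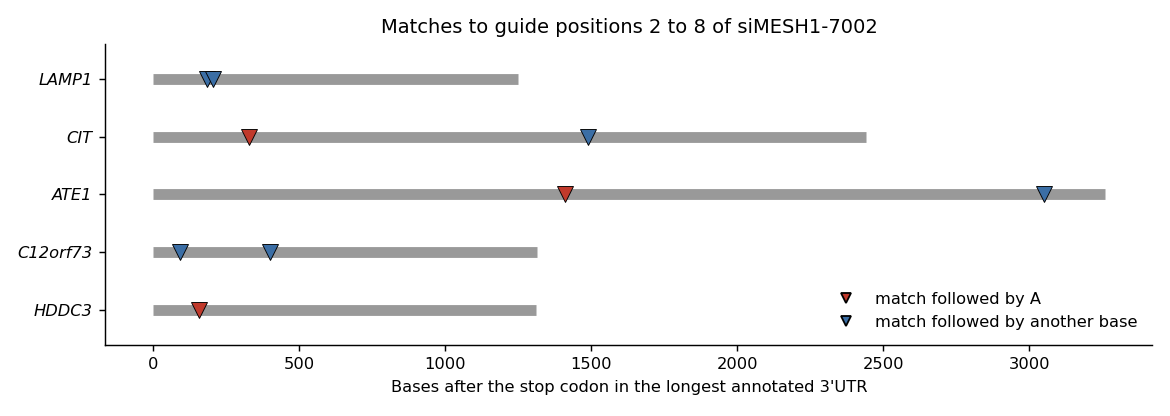
Matches to bases 2 to 8 of the siMESH1-7002 guide (triangles) along the longest annotated 3'UTR of each gene (grey bars; x axis, bases after the stop codon). The matches of LAMP1 start 21 bases apart, those of ATE1 1642 bases apart, and only the first matches of CIT and ATE1 and the HDDC3 target are followed by A.

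The number of matches depended on the annotated isoform. Both matches were present in the 1 coding transcript of LAMP1, in 2 of 4 of CIT, in 5 of 6 of ATE1 and in 3 of 8 of C12orf73. For all 4 genes the principal transcript also carried 2. The deposited counts are per gene, and which 3'UTRs were present in RCC4 cells was not tested.

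Beyond the seed, the 8 matches were compared with the 867 matches found in the 3'UTRs of all genes tested with siMESH1-7002. Pairing without a gap extended to base 9 or further in 6 of the 8, beside 39.7% of all matches. The 30 bases on each side were 50% to 80% A or U with a median of 70.8%, beside a median of 60% over all matches. The predicted energy of the duplex with the guide had a median of -16.25 kcal/mol in the 4 genes and of -13.5 kcal/mol over all.

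The base that follows the match is A in 2 of the 8, the first match of CIT and the first of ATE1, and in 15.5% of all matches. An A at this place is favoured by Argonaute. Over the whole guide, seed included, the 8 windows paired with 9 to 13 of the 21 bases, whereas HDDC3 paired with all 21. Of 65 neighbouring pairs of matches in one 3'UTR, 2 started within 40 bases of each other, those of LAMP1 and of SYT16. SYT16, named after its value was seen, had its matches 8 bases apart and changed by -0.57 on the log2 scale after siMESH1-7002. These 8 matches were picked with the genes, so the comparison describes them only.

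Matches to the siMESH1-CDS seed were counted in the same way. LAMP1 and ATE1 had none. CIT had 1 outside its 3'UTR and none in it, and C12orf73 had 1 in its 3'UTR.

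The targeted gene was read first. HDDC3 had 438, 292 and 361 reads with siNT and 5, 0 and 11 reads with siMESH1-CDS. In the 7002 experiment it had 442, 326 and 358 reads with siNT and 36, 35 and 52 with siMESH1-7002. Every library thus matched its label as to MESH1 siRNA or siNT. As HDDC3 fell with both siRNAs, it was not used to tell which MESH1 siRNA or which siNT group a library belonged to. The log2 fold change was -5.56 ± 0.823 (SE) with siMESH1-CDS and -3.25 ± 0.129 with siMESH1-7002, with edgeR quasi-likelihood adjusted p = 0.00174 and 2.51e-12. In these bulk libraries fewer cells of a type and less RNA per cell cannot be told apart.

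The libraries held 34063155 to 49134129 reads in genes in the CDS experiment and 24787804 to 31651125 in the 7002 experiment. The siMESH1-CDS libraries differed more from each other than the rest, and the biological coefficient of variation was 0.299 in the CDS experiment and 0.0490 in the 7002 experiment. With siMESH1-CDS the change of a gene also went with the GC content of its transcript. The median log2 fold change was 1.11 in the lowest of 10 GC classes and -3.60 in the highest, against 0.14 and -0.10 with siMESH1-7002. All 9 marker genes of the line had reads in every library, with a summed level of 5320 to 5382 CPM by library size with siNT and 4586 to 5493 CPM with siMESH1-CDS, and of 8968 to 9437 CPM with siNT and 8528 to 8678 CPM with siMESH1-7002. Some single markers were far lower with siMESH1-CDS. PAX8, a renal lineage factor, went from 167 to 198 CPM with siNT to 26.5 to 82.0 CPM. KRT18, a keratin, went from 76.6 to 91.5 CPM to 0.242 to 6.84 CPM. CDH2, a cadherin, rose instead, from 566 to 619 CPM to 1399 to 1610 CPM. VIM, vimentin, held most of the sum, at 3781 to 3901 CPM with siNT and 2996 to 3291 CPM with siMESH1-CDS. Marker levels with siNT also differed between experiments, as NDUFA4L2 was at 25.7 to 34.6 CPM in the CDS experiment and 954 to 1037 CPM in the 7002 experiment. Of 6 markers of other cell types, CD3E and PECAM1 had no reads, PTPRC, CDH5 and ALB reached at most 0.0235, 0.0492 and 0.305 CPM, and COL1A1, a fibroblast collagen, was at 3.26 to 29.6 CPM. The part of these shifts in the results was not tested.

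LAMP1 was the most lowered of the 4 genes with siMESH1-7002. Its level was 648, 662 and 656 CPM (read counts scaled to a common library size, TMM-normalised) with siNT and 93.4, 94.0 and 93.3 CPM with siMESH1-7002. The siMESH1-7002 libraries lay far below the siNT libraries and hardly differed among themselves. The mean fell from 655 ± 6.90 to 93.6 ± 0.408 CPM (SD, n = 3), which left 14.3% of the siNT level. The log2 fold change was -2.81 ± 0.0421 (SE), the 11th lowest of 13568 genes tested.

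With siMESH1-CDS, LAMP1 was at 434, 334 and 530 CPM, and at 389, 390 and 419 CPM with the siNT of that experiment. The groups overlapped, with 1 siMESH1-CDS library below all siNT libraries and 2 above. The log2 fold change of 0.12 (95% interval -0.31 to 0.54) missed the threshold (edgeR adjusted p = 0.563, two-sided exact permutation p = 0.7). With the GC correction it was 0.84 and was called (adjusted p = 6.86e-05), and with library-size scaling it was -0.14 (adjusted p = 0.584). Without siMESH1-CDS replicate 2 the value was 0.29 and was called (adjusted p = 0.0475), and without replicate 3 it was -0.072 (adjusted p = 0.626).

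CIT was at 23.3, 23.1 and 21.5 CPM with siNT and at 5.41, 3.95 and 4.55 CPM with siMESH1-7002. All siMESH1-7002 libraries lay below all siNT libraries. The mean fell from 22.6 ± 0.970 to 4.64 ± 0.732 CPM, a log2 fold change of -2.29 ± 0.0984 (SE).

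In the main fit CIT was the one of the 4 genes that was also called lower with siMESH1-CDS. ATE1 was called lower there only with the GC correction, at -0.31 (edgeR adjusted p = 0.0294). CIT was at 69.3, 64.9 and 66.9 CPM with siNT and at 11.5, 10.2 and 20.05 CPM with siMESH1-CDS, and the groups did not overlap. The log2 fold change was -2.27 ± 0.278 (SE; edgeR adjusted p = 9.49e-04), and the exact permutation p was 0.1, the smallest that 3 libraries against 3 allow. In 1 model of all 12 libraries the changes were -2.29 with siMESH1-7002 and -2.42 with siMESH1-CDS, and the first less the second was 0.13 ± 0.315 (SE). siNT levels of CIT were higher in the CDS experiment than in the 7002 experiment, and no comparison was made across experiments except through each siNT.

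ATE1 was at 18.3, 20.6 and 20.5 CPM with siNT and at 6.87, 6.99 and 6.27 CPM with siMESH1-7002. The mean fell from 19.8 ± 1.32 to 6.71 ± 0.385 CPM, with 33.9% of the siNT level left and a log2 fold change of -1.56 ± 0.0857 (SE). The groups did not overlap.

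With siMESH1-CDS, ATE1 was instead higher, at 47.3, 47.5 and 41.0 CPM beside 34.9, 32.9 and 36.4 CPM with siNT. The groups did not overlap here either. The log2 fold change was 0.38 ± 0.114 (SE; edgeR adjusted p = 0.0235, exact permutation p = 0.1). With a correction for GC content it turned to -0.31 (adjusted p = 0.0294). The call was also lost without siMESH1-CDS replicate 1 and without each siNT replicate, with adjusted p from 0.0654 to 0.0938.

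C12orf73 was at 9.27, 8.32 and 9.26 CPM with siNT and at 3.02, 3.11 and 3.27 CPM with siMESH1-7002, on 207 to 294 and 87 to 99 reads. The groups did not overlap. The mean fell from 8.95 ± 0.545 to 3.13 ± 0.127 CPM, with 35.0% of the siNT level left and a log2 fold change of -1.52 ± 0.107 (SE).

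With siMESH1-CDS, C12orf73 was at 14.99, 15.8 and 13.7 CPM beside 12.2, 9.47 and 10.8 CPM with siNT. All siMESH1-CDS libraries were above all siNT libraries. The log2 fold change was 0.45 ± 0.170 (SE; edgeR adjusted p = 0.0499, exact permutation p = 0.1), just past the threshold. It was 0.06 (adjusted p = 0.721) with the GC correction, and the call was lost without siMESH1-CDS replicate 1 and without each siNT replicate, with adjusted p from 0.0737 to 0.162.

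**Figure D2:**
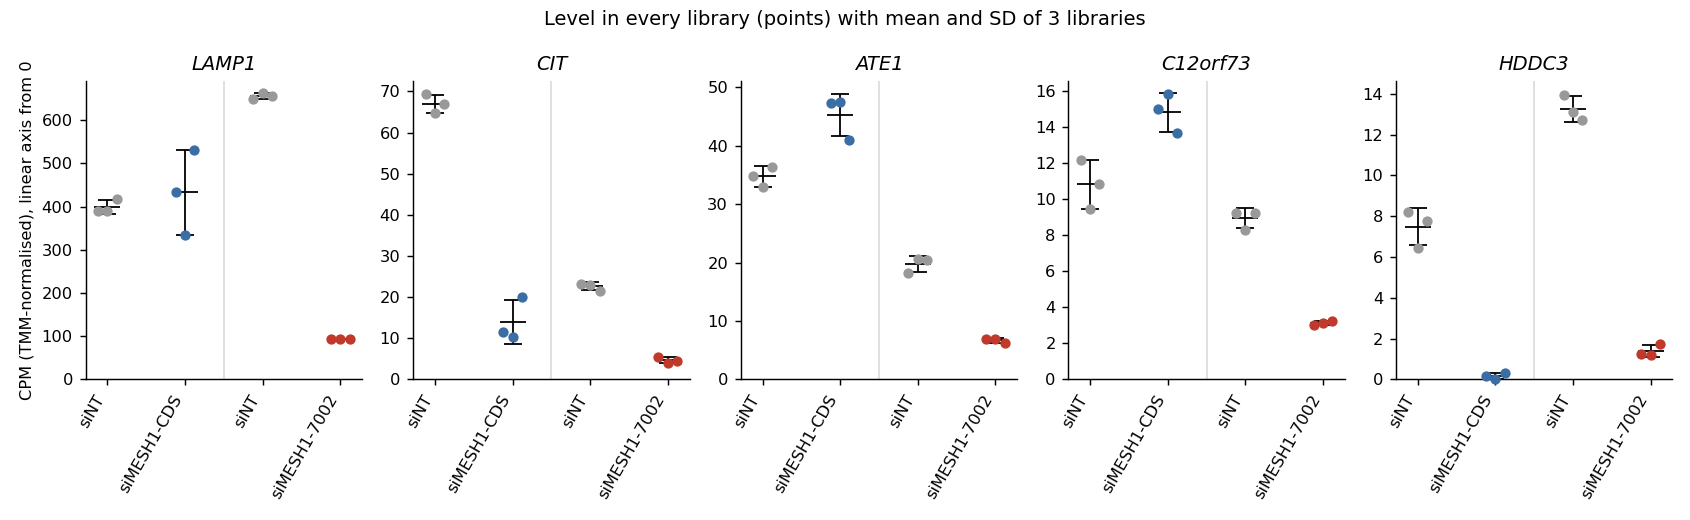
TMM-normalised CPM of each gene in every library (points; y axis linear from 0, 1 scale per gene) with the mean and SD of 3 libraries. With siMESH1-7002 (red) all 5 genes lay below their siNT, while with siMESH1-CDS (blue) CIT and HDDC3 lay below, ATE1 and C12orf73 above, and LAMP1 overlapped its siNT.

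Of the 4 genes, all 4 were below siNT with siMESH1-7002, where 26.7% of all genes tested were called lower and 26.6% higher (edgeR adjusted p under 0.05) and 59.5% had groups that did not overlap. That count was fixed by the choice of genes. With siMESH1-CDS, 1 of 4 was called lower, beside 37.2% of the 13395 genes tested, and 2 of 4 were called higher, beside 36.9%. Groups did not overlap for 3 of 4, beside 82.7% of all genes, so these counts do not stand out from the background. The 2 changes were set against each other in 1 model of all 12 libraries, which gave other siMESH1-CDS values than the fit by experiment, -0.042 for LAMP1, 0.22 for ATE1 and 0.29 for C12orf73. In that model the change with siMESH1-7002 less the change with siMESH1-CDS was -2.77 ± 0.194 (SE) for LAMP1, -1.79 ± 0.135 for ATE1 and -1.82 ± 0.160 for C12orf73. These differences contain the value used in the choice and were not tested. The CDS experiment was run on 4 lanes, of which 2 held both groups, and with lane as a term the changes with siMESH1-CDS were 0.25 for LAMP1 (adjusted p = 0.219), -2.16 for CIT (adjusted p = 0.000384), 0.30 for ATE1 (adjusted p = 0.208) and 0.32 for C12orf73 (adjusted p = 0.356). The 7002 experiment was run on 1 lane.

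The GC content of the transcript moved with the siMESH1-CDS values. It was 51.2% for LAMP1, 51.5% for CIT, 40.5% for ATE1 and 44.0% for C12orf73. Genes in the GC class of LAMP1 and CIT had a median log2 fold change of -0.78 with siMESH1-CDS, those in the class of ATE1 1.01 and those in the class of C12orf73 0.62. LAMP1 at 0.12 thus lay above the upper quartile of that class (-0.04), and CIT at -2.27 below its lower quartile (-1.66). ATE1 at 0.38 lay below the lower quartile of its class (0.44). C12orf73 at 0.45 lay between the lower quartile (0.01) and the median of its own. With the GC correction CIT remained lower at -1.51 (adjusted p = 1.73e-04), and LAMP1 was higher at 0.84 (adjusted p = 6.86e-05). That correction moved the median of all genes from -0.05 to 0.19. Relative to these medians LAMP1 went from 0.16 to 0.64, ATE1 from 0.43 to -0.50 and C12orf73 from 0.50 to -0.13. The part of GC content in these values was not tested further.

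**Figure D3:**
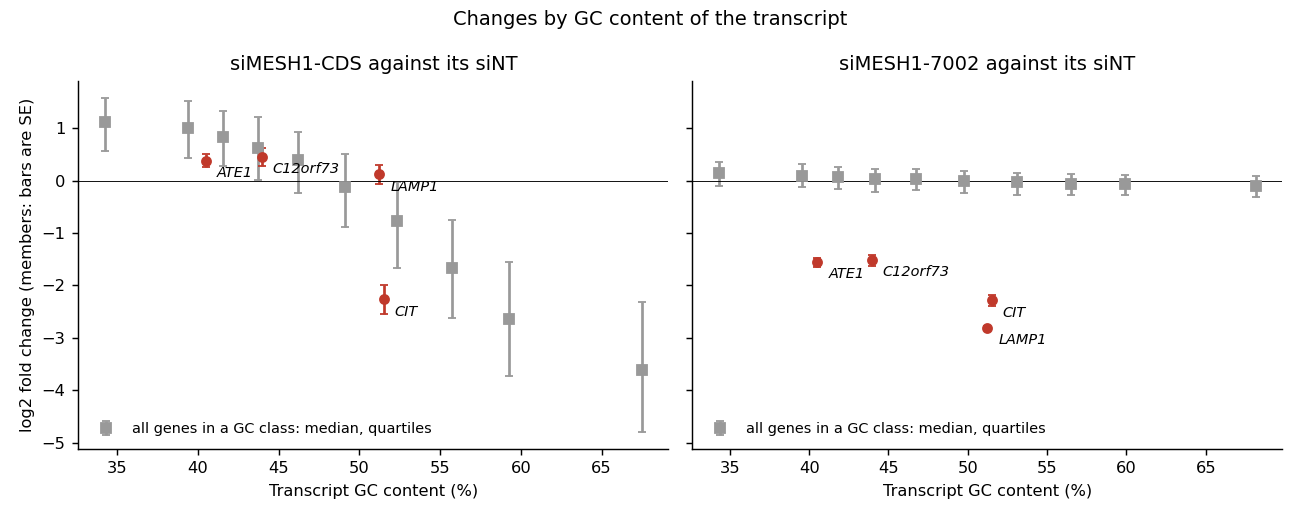
Log2 fold change (y axis) against transcript GC content (x axis, %) for the 4 genes (red, with SE) and for all genes in 10 GC classes (grey squares, median and quartiles). The class medians run from 1.11 to -3.60 with siMESH1-CDS and from 0.14 to -0.10 with siMESH1-7002, where all 4 genes lie below their class.

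The 4 genes were then set among all genes with matches to the siMESH1-7002 seed, a class defined from sequence. Of the 12510 genes tested with siMESH1-7002 that had an annotated 3'UTR, 6.41% carried 1 or more matches and 0.496% carried 2 or more. Of the 62 genes with 2 or more matches, 37 were called lower and 9 higher, with a median log2 fold change of -0.32. Over all genes with a 3'UTR 27.9% were lower and 27.3% higher. Without LAMP1, CIT, ATE1 and C12orf73, the counts were 33 lower and 9 higher of 58, with a median of -0.29.

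Of the 740 genes with 1 match, 365 were called lower and 124 higher, with a median of -0.18. Of the 11708 genes with no match, 3091 were lower and 3278 higher, with a median of 0.01. The median thus went down with the number of matches. The median 3'UTR length rose over these classes, from 1310 bases with no match to 5399 bases with 2 or more. Genes with 2 or more matches to the other seed, that of siMESH1-CDS, had long 3'UTRs too (median 4828 bases), and 102 of 426 were lower and 150 higher with siMESH1-7002, with a median of 0.08.

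With siMESH1-CDS the same 2-match class had the opposite sign. Of 64 genes tested, 4 were called lower and 50 higher, beside 38.2% and 37.8% of all genes with a 3'UTR. The median was 0.93, beside -0.06 over all genes with a 3'UTR. The class had a median transcript GC content of 40.3%, beside 47.5% over all. With the GC correction its median was 0.45, beside 0.19 over all genes with a 3'UTR. With that correction 12 of the class were lower, beside 3593 of all 13395 genes tested. The 4 that were lower without that correction, named after their values were seen, were CIT, PRKCE, LRRC58 and ARID1B. LRRC58 was at -2.40 ± 0.233 (SE; edgeR adjusted p = 4.99e-04) and ARID1B, a chromatin remodelling subunit, at -0.38 ± 0.0882. In their 3'UTRs LRRC58 also carried 4 matches to the siMESH1-CDS seed and ARID1B 1, while CIT and PRKCE had 0. Of all genes tested with siMESH1-7002 that had a 3'UTR, 16.7% carried 1 or more such matches. Genes of the class that rose with siMESH1-CDS carried them too, as PTAR1 with 3 at 1.01 and TAOK1 with 2 at 1.53. The part of these matches in the values was not tested. With the GC correction ARID1B turned to 1.07, while CIT was at -1.51, PRKCE at -0.66 and LRRC58 at -3.24. Without siMESH1-CDS replicate 3 the number lower was 7.

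**Figure D4:**
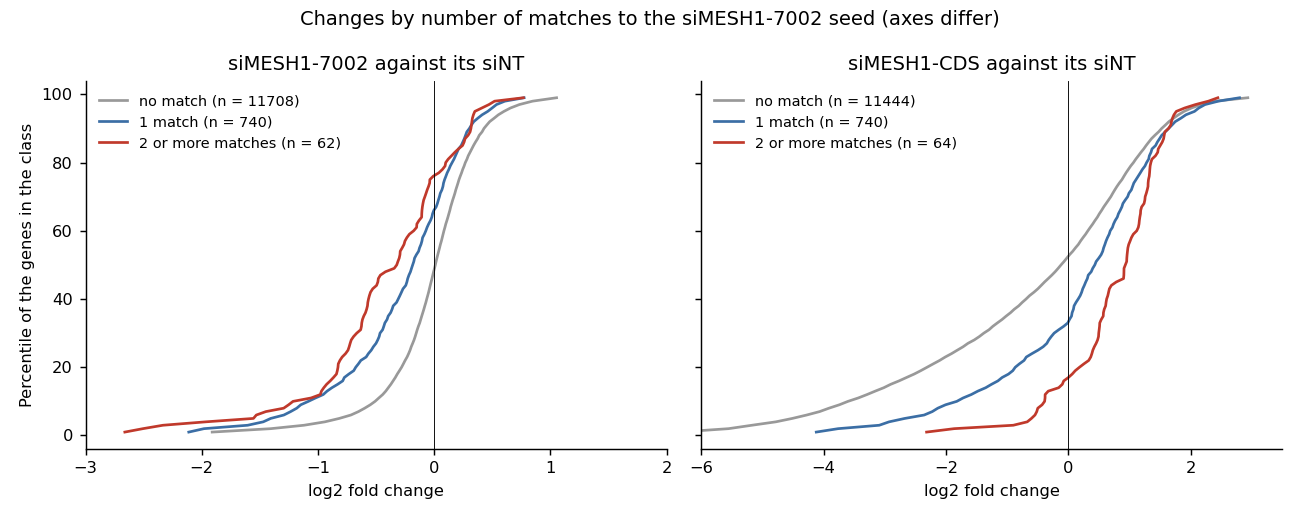
Percentile of genes (y axis) against log2 fold change (x axis, different range in each panel) for genes with 0, 1 or 2 or more matches to the siMESH1-7002 seed. At the median the curve for 2 or more matches is the lowest of the 3 with siMESH1-7002 (-0.32) and the highest with siMESH1-CDS (0.93), and the curves cross near the top of each panel.

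Among the 62 genes with 2 or more matches, LAMP1, CIT, ATE1 and C12orf73 took places 1, 3, 4 and 5 by their fall with siMESH1-7002. Such high places follow from the choice of the 4 by that fall. Place 2 was taken by RPL27A, which encodes a protein of the large ribosomal subunit and is not among the 4. RPL27A went from 595 to 100.3 CPM, a log2 fold change of -2.57 ± 0.0466 (SE), and was at -0.53 ± 0.553 with siMESH1-CDS (adjusted p = 0.414). It carried 2 matches, each followed by A, in 1 of 8 coding transcripts, whose 3'UTR has 4066 bases, and 1 match in 6 of 8. Ribosomal protein genes are known to have processed pseudogenes, and whether reads were shared with such copies was not tested, so its counts are given as uncertain.

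The next 5 genes with a mean of at least 1 CPM lay just outside the 4. PRKCE, a protein kinase C, was at -1.26 ± 0.0862, and ITGB8, an integrin subunit, at -1.24 ± 0.0564. KPNA1, a nuclear import adaptor, was at -0.98, ABLIM1, an actin-binding protein, at -0.97, and SMAD2, a transducer of TGF-beta signals, at -0.93. C12orf73, the least lowered of the 4, was at -1.52. With siMESH1-CDS the 5 were at -0.73, 1.32, 1.16, 1.47 and 1.25 in the same order. Of the 62 genes, 26 were called lower with siMESH1-7002 and higher with siMESH1-CDS, 4 were lower with both and 7 were lower with siMESH1-7002 and not called with siMESH1-CDS. Each siRNA alone had 37 of 62 of the class lower (siMESH1-7002) and 50 of 64 higher (siMESH1-CDS). The joint count was not made over all genes, so the 26 are not read as a link between the 2 changes.

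**Figure D5:**
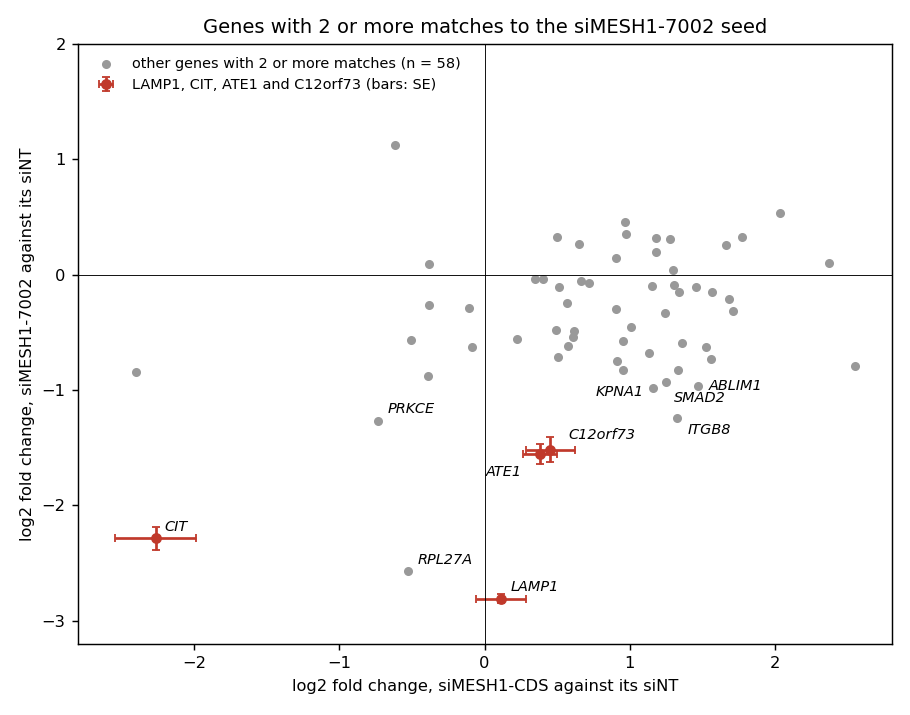
Log2 fold change with siMESH1-7002 (y axis) against that with siMESH1-CDS (x axis) for the 62 genes with 2 or more matches to the siMESH1-7002 seed. LAMP1, ATE1 and C12orf73 (red, with SE on both axes) lie low near or right of 0 on the x axis, CIT lies low on both axes, and most of the other 58 genes lie to the right.

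The genes whose pattern over the 12 libraries was most like that of each of the 4 were found by the root mean square difference of log2 CPM, each value less the siNT mean of its experiment, among 11549 genes. For LAMP1 these were AIDA (0.267), KCNS3 (0.352) and HMMR (0.397), with 0, 1 and 0 matches to the siMESH1-7002 seed. For CIT they were GINS4 (0.126), MKI67 (0.184) and KIF20A (0.201), of DNA replication, proliferating nuclei and cytokinesis, and none had a match. For ATE1 they were BZW2 (0.0848), OXSR1 (0.0911) and GLTP (0.138), with 1, 1 and 0 matches, and for C12orf73 BZW2 (0.0912), OXSR1 (0.0921) and PLEKHA2 (0.149), with 1, 1 and 0. ATE1 and C12orf73 therefore shared 2 of their 3 nearest genes.

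Other genes of the same pathways were read for each of the 4. In the list of cytokinesis and midbody genes, where CIT acts, 17 of 24 were called lower and 3 higher with siMESH1-7002, beside 26.7% and 26.6% of all genes, with a median of -1.43, and 16 were lower and 5 higher with siMESH1-CDS, beside 37.2% and 36.9%, with a median of -1.18. None of the 24 carried a match to the siMESH1-7002 seed. KIF14, a kinesin that binds citron kinase, was lowest with siMESH1-7002 at -2.83 ± 0.111 (SE; adjusted p = 2.45e-12), and AURKB, the kinase of the chromosomal passenger complex, was lowest with siMESH1-CDS at -4.85 ± 0.672 (adjusted p = 0.00141). At the other end were CDC14A, a phosphatase, at 0.47 (adjusted p = 0.0383) and SEPT7, a septin, at 1.26 (adjusted p = 0.00163). CIT thus fell beside genes of its process that have no match, and the part of either in its value was not tested.

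In the list of lysosomal membrane genes, 4 of 23 were called lower and 9 higher with siMESH1-7002, beside 26.7% and 26.6% of all genes, with a median of 0.08 beside 0.01, and none carried a match. LAMP2, the closest relative of LAMP1, was at -0.04 ± 0.0607 (SE; adjusted p = 0.591) with siMESH1-7002 and at 2.15 ± 0.171 (adjusted p = 3.30e-04) with siMESH1-CDS. ATP6V1B2, a subunit of the proton pump, was lowest with siMESH1-7002 at -1.02 ± 0.0478 (adjusted p = 1.94e-11), and OSTM1, a partner of a lysosomal chloride transporter, was highest at 0.79 (adjusted p = 2.62e-08). With siMESH1-CDS 11 were lower and 10 higher, beside 37.2% and 36.9% of all genes, with a median of -0.59 beside -0.05, and TMEM175, a lysosomal ion channel, was lowest at -5.31 (adjusted p = 0.00203). LAMP1 itself, at -2.81 with siMESH1-7002, lay below every gene of this list. It was chosen for that fall, so its place describes it only.

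In the list of the Arg/N-degron pathway, which destroys proteins by their N-terminal residue and in which ATE1 acts, 4 of 14 were lower and 5 higher with siMESH1-7002, beside 26.7% and 26.6% of all genes, with a median of 0.03. METAP2, a methionine aminopeptidase, was the lowest at -1.27 ± 0.0588 (SE; adjusted p = 1.71e-11) and was the one gene of the list with a match to the siMESH1-7002 seed, of which it had 1. UBR1, a ligase that recognises the arginine added by ATE1, was highest at 0.62 ± 0.0840 (adjusted p = 9.51e-06). With siMESH1-CDS 3 of 15 were lower and 11 higher, beside 37.2% and 36.9%, with a median of 0.68, from RGS4 at -2.61 (adjusted p = 4.18e-04) to RGS5 at 2.18 (adjusted p = 4.14e-04), which are both substrates of the pathway.

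In the list of complex III subunits and assembly factors, 4 of 13 were lower, near the 26.7% of all genes, and 0 were higher, beside 26.6%, with siMESH1-7002 by edgeR, with a median of -0.11, and none carried a match. At an unadjusted p under 0.05 edgeR had 1 higher, and DESeq2 called 0 higher. The list held 16 genes, and its assembly factors UQCC1, UQCC2 and UQCC3 had no value under those symbols. The 13 ran from UQCRC1, a core subunit, at -0.30 ± 0.0491 (SE; adjusted p = 6.98e-05) to UQCR10, a small subunit, at 0.12 ± 0.0521 (adjusted p = 0.0688). C12orf73 at -1.52 lay outside that range, but it was chosen for its fall, so this describes it only. With siMESH1-CDS 8 were lower and 3 higher, beside 37.2% and 36.9% of all genes, with a median of -0.99, from CYC1, which carries cytochrome c1, at -6.002 (adjusted p = 0.00299) to UQCRB at 1.67 (adjusted p = 5.32e-04).

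The machinery that carries out seed-directed silencing was measured as well. With siMESH1-7002, 4 of 19 genes were lower and 10 higher, beside 26.7% and 26.6% of all genes, with a median of 0.28. AGO4, an Argonaute, was highest at 0.84 ± 0.0539 (SE; adjusted p = 1.31e-09), and DICER1, which cuts microRNA precursors, was lowest at -0.74 ± 0.0692 (adjusted p = 1.46e-07). With siMESH1-CDS 5 were lower and 9 higher, beside 37.2% and 36.9%, with a median of 0.44, from TARBP2, a partner of DICER1, at -4.21 (adjusted p = 0.00325) to AGO4 at 1.86 (adjusted p = 2.12e-04). AGO3 and TNRC6C carried matches to the siMESH1-7002 seed and were at -0.07 and 0.65 with that siRNA.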

How the data were processed

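Each deposited file gives, for 1 library, raw counts of reads by gene symbol that the authors made from stranded mRNA libraries, and the submitters' processing notes name FastQC, HISAT2, HTSeq, DESeq2 and the build hg19. The study's methods give DESeq2 as the tool of its differential analysis, and the versions are not given in the sources used here. The deposited DESeq2 tables hold the authors' own fold changes and p-values and were not used. Rows that name no gene, 38.9% to 49.3% of each file, entered neither library sizes nor tests.

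Groups follow the siRNA and control named in the labels. The test was that of edgeR 4.0.16, run in R 4.3.3 (filterByExpr, TMM scaling, glmQLFit and glmQLFTest), each siRNA against its own siNT, with Benjamini-Hochberg adjustment over all genes tested and a threshold of 0.05. SE is the log2 fold change over the square root of F. Single values were tested with the two-sided exact permutation test over 10 splits (scipy 1.17.1). On simulated counts, 21 of 200 genes changed 2-fold were recovered for siMESH1-CDS and 200 of 200 for siMESH1-7002. Every simulated gene had the common coefficient of variation of its experiment, the same in both groups, and only those 200 genes changed. The real libraries differ from this setting, so these numbers are not the recovery of the real tests.

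Seed matches were counted in the longest annotated 3'UTR of each gene in GENCODE 29 (GRCh38). Of 23710 symbols, 21258 matched by name and 1173 by an older symbol, and 18903 had a 3'UTR. Duplex energy was computed with RNAduplex 2.7.2 on 30 bases. For the GC correction, log2 CPM was smoothed on transcript GC content in each library (lowess, span 0.3) and the smooth entered as an offset.

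The 4 genes and all lists were chosen with earlier results of these data known. Beyond them, named genes were those with 2 or more matches and at least 1 CPM that fell more than the least lowered of the 4, the 5 that came next, the 3 nearest in pattern to each (a prior of 0.5 was added to CPM), and the lowest and highest of each list. LAMP2, AGO3 and TNRC6C were added after their values were seen. Alternatives were DESeq2 1.42.0, other scaling and filters, a replicate block, a lane term, the GC correction, 1 model of 4 groups, leaving out each replicate, and other definitions of a match. A gene at 1 CPM rests on about 25 to 49 reads.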

Additional observations from a re-analysis of the deposited data

Results flagged for a closer look

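ATE1 and C12orf73 lay on opposite sides of siNT with the 2 siRNAs, since every siMESH1-7002 library was below all siNT libraries of its experiment and every siMESH1-CDS library was above all of its own. In 1 model of all 12 libraries the change with siMESH1-7002 less that with siMESH1-CDS was -1.79 for ATE1 and -1.82 for C12orf73. The fall with siMESH1-7002 chose the genes, so the difference was not tested, and the rise with siMESH1-CDS did not keep its call under most alternatives. With the GC correction the siMESH1-CDS change of ATE1 turned to -0.31 (edgeR adjusted p = 0.0294), the same direction as with siMESH1-7002, and that of C12orf73 was 0.057 (adjusted p = 0.721).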

How the results depend on the processing

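With siMESH1-7002 each of the 4 genes stayed lower under all 13 alternatives. LAMP1 moved by more than its spread once, to -2.71 with the GC correction, and the leave-one-out ranges were -2.82 to -2.80 for LAMP1, -2.41 to -2.18 for CIT, -1.62 to -1.51 for ATE1 and -1.56 to -1.49 for C12orf73.

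With siMESH1-CDS, CIT kept its call under all 14 alternatives, from -2.64 to -1.51, and its leave-one-out range was -2.64 to -2.07. LAMP1 was -0.14 with library-size scaling, -0.068 with at least 10 reads in every library, -0.042 with 4 groups in 1 model and 0.84 with the GC correction, with a leave-one-out range of -0.072 to 0.29, its lowest value without siMESH1-CDS replicate 3 and its highest, called at adjusted p = 0.0475, without replicate 2. ATE1 was -0.31 with the GC correction and lost its call with DESeq2 (0.34), library-size scaling (0.11), at least 10 reads (0.19), and the lane term (0.30). Its leave-one-out range was 0.34 to 0.43, and the call was lost in 4 of 6 of these fits (0.34 to 0.41). C12orf73 lost its call with DESeq2 (0.41), library-size scaling (0.19), at least 10 reads (0.26), no filter (0.44), the lane term (0.32), and the GC correction (0.057). Its leave-one-out range was 0.36 to 0.54, with the call lost in 4 of 6 fits. The cause was not tested.

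Deviations of same-numbered libraries had correlations of -0.05, 0.24 and 0.13 for replicates 1, 2 and 3 of the CDS experiment. In the 7002 experiment they were -0.08 to 0.04. As these were low and mixed in sign, the numbers were not taken as pairs in the main fit, though a shared part in the CDS experiment remains possible. With the replicate block ATE1 was 0.38 (adjusted p = 0.0756) and C12orf73 0.46 (adjusted p = 0.112) with siMESH1-CDS, and calls over all genes went from 4981 lower and 4945 higher to 4794 and 4479.

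Genes with 2 or more matches called lower with siMESH1-7002 numbered 37 of 62, with a leave-one-out range of 35 to 40. They numbered 5 of 6 where each match had to be followed by A and 336 of 910 with matches of 6 bases. With siMESH1-CDS they numbered 4 of 64, and 7 with 4 groups in 1 model, 12 with the GC correction and 4 to 7 by leaving out. They numbered 0 of 6 where each match had to be followed by A (0 also at an unadjusted p under 0.05 by edgeR and with DESeq2) and 153 of 920 with matches of 6 bases. These last counts follow from how many genes carry such matches. The 4 groups in 1 model share a spread, and calls over all genes with siMESH1-7002 fell to 1444 lower and 1138 higher from 3622 and 3613.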
